A study of Mus musculus with 4 samples.

Results

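The genes described here are 9 genes of insulin-like growth factor (IGF) signalling, a growth factor gene (Igf1), its receptor (Igf1r), 6 secreted binding proteins (Igfbp2 to Igfbp7) and an intracellular adaptor (Irs1). They were chosen by name, with no threshold on their values but with earlier results of these data known, and all of their probes on the array were taken, which gave 12 probes for 9 of the 16593 genes with a named probe. RNA came from 4 lines of mouse embryonic fibroblasts (MEFs), connective tissue cells grown from embryos at day 12.5. The knockout (KO) group was 2 lines of genotype H3f3b -/-, which carry no working copy of a gene for the histone variant H3.3, and they were set against wildtype (WT) cells, 2 littermate lines of genotype H3f3b WT/WT. All 4 lines were of C57BL6J strain and carried a stable pBabe puro vector, and the KO allele descends from deletion by Zp3Cre, a recombinase active in the egg. Head and visceral organs had been removed from the embryos, and each line is 1 culture with 1 Illumina array, so that p-values measure the spread between lines.

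IGF-1 and IGF-2 are secreted growth factors that bind the IGF-1 receptor, a tyrosine kinase at the cell surface. The activated receptor phosphorylates adaptors of the IRS family, which pass the signal to PI3 kinase and AKT, while a second arm runs through RAS and MAP kinases. In the fluid outside of the cell most IGF is held by binding proteins, which lengthen its life and set how much can reach the receptor, and proteases that cut the binding proteins set it free. Fibroblasts are a well known source of both the growth factors and the binding proteins.

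The start sites of 4 of these genes are shown because their transcripts carry the results below: Igf1 and Igfbp4 had the clearest differences by genotype, and Igfbp2 and Igfbp5 differed most between lines of the same genotype. Each sequence is the 100 bases just before a RefSeq start site (GRCm38.p6, given 5′ to 3′ on the strand of the gene), and for Igf1 and Igfbp4 this is a start site other than the start of the annotated gene. The capitals mark CG dinucleotides, the sites at which mammalian DNA is methylated. The stretches lie at chr10:87861011-87861110 (+) for Igf1, chr1:72824380-72824479 (+) for Igfbp2, chr11:99041144-99041243 (+) for Igfbp4 and chr1:72874866-72874965 (-) for Igfbp5.
Igf1: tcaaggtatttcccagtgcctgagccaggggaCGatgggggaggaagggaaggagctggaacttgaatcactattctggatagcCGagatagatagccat
Igfbp2: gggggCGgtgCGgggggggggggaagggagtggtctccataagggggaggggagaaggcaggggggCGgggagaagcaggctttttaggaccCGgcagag
Igfbp4: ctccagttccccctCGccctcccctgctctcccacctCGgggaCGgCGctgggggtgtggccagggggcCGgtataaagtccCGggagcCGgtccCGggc
Igfbp5: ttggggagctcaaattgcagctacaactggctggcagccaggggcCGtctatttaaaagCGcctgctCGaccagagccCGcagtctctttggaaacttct

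All 9 genes matched the promoter table, with 10 start sites. Over the 250 bases before each start site, they held between 5 (Igf1) and 42 (Igf1r) CG dinucleotides with a median of 18, beside a median of 6 over all 32851 promoters of the table. Igfbp2 held 14 and 11 at its 2 start sites, Igfbp5 held 10, Igfbp4 held 22 and Igfbp7 held 26. The motif TATAAA, searched on both strands, was found in 2 of the 10 windows (Igfbp4 and Igfbp6) and in 12.4% of all promoters. Igfbp2 and Igfbp5 are next to each other among the protein-coding genes of their chromosome.

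The arrays were checked first. The H3f3b probe had a signal of 97.3 and 98.7 in KO, not called detected, against 1736 and 1686 in WT, which after normalization is at least 69.5-fold lower in KO (limma adjusted p = 3.05e-05). H3f3a, the other H3.3 gene, differed by -0.04 ± 0.17 log2 units (SE). The KO arrays were brighter than the WT arrays, with a mean signal of 381 and 382 in KO lines, against 291 and 294 in WT, so the genotypes are compared below on values brought to a common distribution. Across the probes tested, the Pearson correlation was 0.990 between the KO lines, 0.981 between the WT lines and 0.978 to 0.985 between lines of different genotype. Of 12 fibroblast markers 11 had a probe, and all 11 were detected on every array. Their summed normalized signal was 31289 and 30777 in KO lines, against 33563 and 29540 in WT, and 10 of the 11 had lower means in KO (median -0.23 log2 units, 1 at an unadjusted p under 0.05). The part of this in the IGF genes was not tested. The Y-linked gene Eif2s3y was not detected in KO line 1, with a signal of 98.0 and 244 in KO lines, against 165 and 135 in WT. The X-linked gene Xist was highest in this line on each of its probes. The brighter had signals of 181 and 107 in KO lines, against 95.8 and 86.8 in WT. The dimmer had 142 and 105.5 in KO lines, against 86.1 and 91.7 in WT. KO line 1 therefore differed from the other 3 in sex-linked expression, whose part in the IGF genes was not tested. In RNA from whole cultures, fewer cells of a type and less RNA per cell cannot be told apart.

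Most of the IGF genes were expressed in every line. A probe was called detected where its detection p, which sets it against the negative control probes of its array, was under 0.05. Of the 12 probes 10 were detected on all 4 arrays, and these covered 8 of the 9 genes, which could be tested. None of the 8 genes passed an adjusted p of 0.05 in limma, where 1 gene of all 8047 did (0.0124%, H3f3b itself), and the smallest adjusted p of an IGF probe was 0.547, for the dimmer Igfbp4 probe. By direction, 2 of the 8 genes had higher and 6 had lower means in KO than in WT, with a median difference of -0.31 log2 units against 0.014 for all genes tested. This median was -0.039 without KO line 2 and 0.030 without WT line 1. With the unadjusted p, 0 of the 8 were higher in KO at 0.05 (4.59% of all genes were) and 1, Igfbp4, was lower (3.54% of all genes). Both KO arrays lay above both WT arrays in 2 genes, Igf1 and Igfbp7 (21.0% of all genes), and below both in 1, Igfbp4 (17.1% of all genes). A difference of 1.5-fold or more was seen in 2 of the 8 genes, Igfbp2 and Igfbp4, against 5.27% of all genes.

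**Figure D1:**
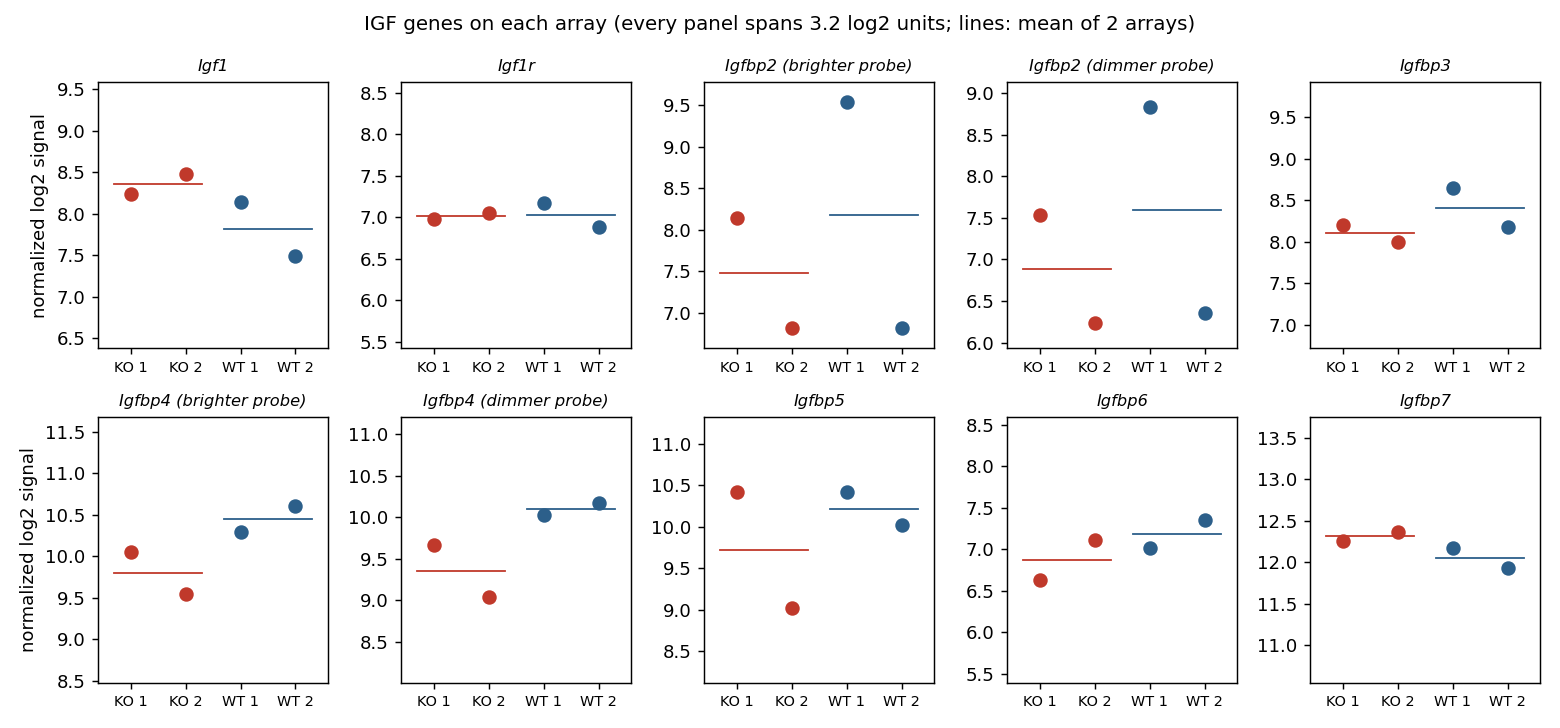
Normalized log2 signal (y axis) of the 10 detected probes of the IGF genes on each array (x axis, KO lines in red, WT lines in blue), with a line at the mean of each genotype. The KO lines lie above both WT lines for Igf1 and Igfbp7 and below both for Igfbp4, while Igfbp2 runs from 6.81 in KO line 2 to 9.54 in WT line 1.

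Igf1 encodes the growth factor itself, which in the embryo is made largely by mesenchymal cells. Its probe had a deposited signal of 432 and 497 in KO lines, against 308 and 225 in WT. After normalization this was 8.23 and 8.48 log2 units in KO lines, against 8.14 and 7.49 in WT, so that the genotypes did not overlap but KO line 1 and WT line 1 were close. The difference of 0.54 ± 0.25 log2 units (SE, from 2 arrays of each genotype) is 1.45-fold, with a 95% confidence interval of -0.06 to 1.13 and a limma adjusted p of 0.669. Most of it came from the low value of WT line 2, and without this array the difference was 0.22. It was 0.87 without WT line 1 and 0.86 with median scaling of the arrays, which moved the median of all genes to 0.28.

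Macrophages are a known source of Igf1, and their marker genes are given beside it. Of 12 macrophage markers 10 had a probe and 8 were tested, and all 8 had higher means in KO, 5 of them at an unadjusted p under 0.05. Their summed normalized signal was 35968 and 27904 in KO lines, against 24378 and 21002 in WT, in the same order of genotypes as Igf1 but with KO line 1 above KO line 2, where Igf1 was higher in line 2. Lyz1 and Lyz2 were the brightest of the 8 and make up most of this sum. The leukocyte markers Ptprc and Itgam were detected on no array, and Csf1r and Cd68 had no named probe here. The part of such cells in the Igf1 signal was not tested. Muscle also makes Igf1, and all 8 muscle markers had a probe. The regulators Myod1, Myf5, Myog and Pax7 were detected on no array, while the 2 markers tested were both higher in KO at an unadjusted p under 0.05, with a summed normalized signal of 2023 and 2616 in KO lines, against 1237 and 758 in WT. Their part in the Igf1 signal was not tested.

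Igf1r encodes the receptor for IGF-1 and IGF-2. Its normalized level was 6.99 and 7.06 log2 units in KO lines, against 7.17 and 6.88 in WT, with both KO lines inside the range of the WT lines. The difference was -0.0056 ± 0.18 log2 units (SE, limma adjusted p = 0.996, 95% confidence interval -0.44 to 0.43). In the deposited signals, 230.5 and 236 in KO lines, against 193 and 173 in WT, both KO arrays were higher, as most probes were on these brighter arrays. With median scaling the difference was 0.28, close to the median of all genes.

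Irs1 encodes an adaptor that docks PI3 kinase to the receptor. Its only probe was near background, with a signal of 108 and 117 in KO lines, against 89.5 and 97.1 in WT, which after normalization is 4.55 and 4.95 log2 units in KO lines, against 4.57 and 4.77 in WT. It was called detected in KO line 2 only, since the detection value was 0.157 and 0.0213 in KO lines, against 0.170 and 0.0739 in WT. Irs1 was therefore not tested, and its level relative to other genes cannot be read from this probe.

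Igfbp4 binds both growth factors and in cell culture mostly holds them back from the receptor. It had the smallest p-value of the 8 genes and was measured by 2 probes. The brighter probe measured 10.06 and 9.55 log2 units in KO lines, against 10.29 and 10.61 in WT, and the dimmer probe had 9.67 and 9.04 in KO lines, against 10.03 and 10.17 in WT. On both probes KO line 2 was the lowest and WT line 2 the highest, and the genotypes did not overlap. The differences were -0.65 ± 0.23 log2 units (SE), or 1.57-fold lower in KO, for the brighter probe and -0.74 ± 0.24, or 1.68-fold lower, for the dimmer probe. Their unadjusted p-values were 0.0276 and 0.0178 and their limma adjusted p-values 0.570 and 0.547, over 2 KO and 2 WT arrays. As deposited, the genotypes overlapped on both probes. The brighter probe had signals of 1331 and 946 in KO lines, against 1120 and 1403 in WT. The dimmer probe had 1024 and 699 in KO lines, against 948 and 1021 in WT. The separation appeared only once the arrays had been scaled. The difference of the brighter probe was -0.39 without KO line 2 (unadjusted p = 0.212), -0.49 without WT line 2 (0.108), and -0.32 with median scaling (0.212), where the genotypes overlapped.

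The genes whose 4 values lay nearest to those of Igfbp4, each centred on its own mean, were Adgrl3, an adhesion receptor gene, Uba7, which encodes the activating enzyme for ISG15, and Rfc4, a subunit of the clamp loader of DNA replication. Their root mean square distances over the 4 arrays were 0.029, 0.044 and 0.044 log2 units, and their differences were -0.64, -0.61 and -0.63. They were picked for this likeness, so that their similar differences follow from the choice. Adgrl3 and Rfc4 were near background, and Adgrl3 was not detected in KO line 2. Without background correction the differences were -0.22 for Adgrl3, -0.40 for Uba7 and -0.24 for Rfc4, against -0.60 for the brighter Igfbp4 probe. With only 4 arrays, such likeness is a description of these lines.

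**Figure D2:**
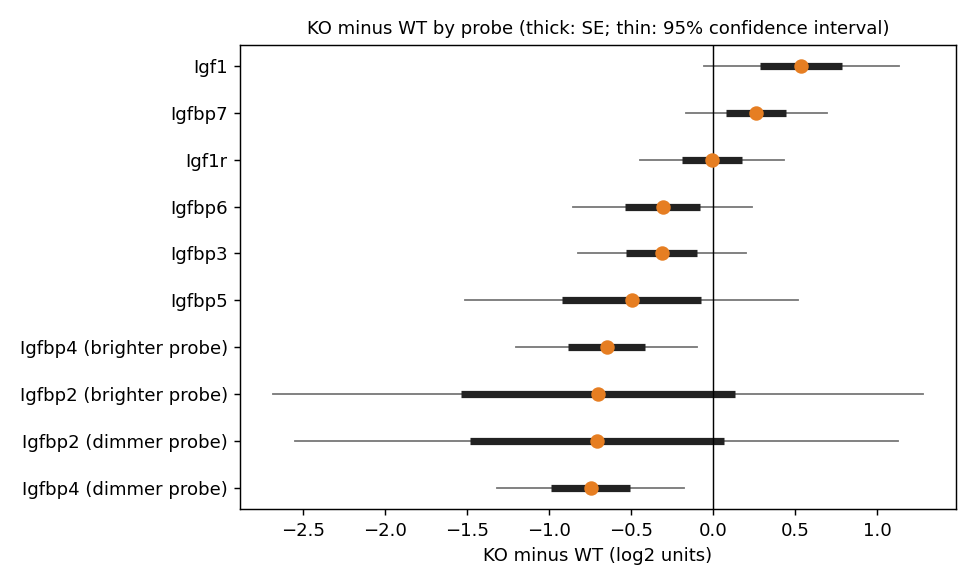
KO minus WT difference in log2 units (x axis) for each detected probe of the IGF genes (y axis), with the SE as a thick bar and the 95% confidence interval as a thin bar, from 2 KO and 2 WT arrays. The interval spans 0 for all probes but those of Igfbp4, and the intervals of Igfbp2 are the widest.

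Igfbp2, a binding protein abundant in embryonic tissues, had larger gaps between lines of 1 genotype than between the genotype means. Its brighter probe had a deposited signal of 410 and 212 in KO lines, against 699 and 169 in WT. The normalized values were 8.14 and 6.81 log2 units in KO lines, against 9.54 and 6.82 in WT, so that line 1 was high and line 2 low in both genotypes. WT line 1 exceeded WT line 2 by 2.72 log2 units (6.58-fold), which was rank 2 of all 8047 genes by the size of this gap. KO line 1 exceeded KO line 2 by 1.34 log2 units (2.52-fold), rank 7 of 8047 among the gaps between KO lines. Among these same gaps the sex-linked genes Eif2s3y and Xist were rank 1 and rank 3. The part of sex in the KO gaps of Igfbp2 and Igfbp5 was not tested. The dimmer probe gave the same order, with 7.54 and 6.23 log2 units in KO lines, against 8.83 and 6.36 in WT. The mean difference between genotypes was -0.70 ± 0.83 log2 units (SE, limma adjusted p = 0.909), with a 95% confidence interval of -2.68 to 1.28. This value had no stable sign, since it was 0.66 without WT line 1, -0.04 without KO line 2, -1.36 without KO line 1 and -2.06 without WT line 2. Of the tested cartilage, bone and adipocyte markers, Col2a1, Lpl and Pparg were lowest in WT line 2, while Sox9 and Cebpa were not. The cartilage gene Col2a1 had 6.27 and 6.92 log2 units in KO lines, against 6.97 and 4.60 in WT. The lipase gene Lpl, an adipocyte marker, had 9.63 and 9.10 in KO lines, against 9.01 and 7.09 in WT. Pparg had 5.30 and 5.27 in KO lines, against 5.21 and 4.76 in WT. The cartilage marker Sox9 had 4.86 and 5.62 in KO lines, against 4.91 and 5.06 in WT. The adipocyte marker Cebpa had 4.73 and 4.96 in KO lines, against 4.52 and 5.28 in WT. Col2a1 and Pparg were not detected in WT line 2, and Cebpa was detected only in KO line 2 and WT line 2. Of 7 cartilage and bone markers 2 were tested, with a summed normalized signal of 106 and 170.0 in KO lines, against 155 and 57.7 in WT, and Sp7 and Ibsp were detected on no array. Of 6 adipocyte markers 3 were tested, with a sum of 857 and 619.7 in KO lines, against 574 and 202 in WT, and Adipoq, Fabp4 and Plin1 were detected on no array. Their part in the Igfbp2 gap was not tested.

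Igfbp5, which also binds the bone and muscle matrix and is the neighbour of Igfbp2 on the chromosome, was low in KO line 2 only. Its deposited signal was 1669.5 and 690.1 in KO lines, against 1216 and 936 in WT. The normalized values were 10.42 and 9.02 log2 units in KO lines, against 10.41 and 10.02 in WT, and KO line 1 and WT line 1 were nearly equal. The gap between the KO lines of 1.40 log2 units (2.64-fold) was rank 5 of 8047, whereas the gap of 0.39 between the WT lines was matched or exceeded by 27.7% of genes. The difference between genotypes was -0.50 ± 0.43 log2 units (SE, limma adjusted p = 0.854). It was 0.20 without KO line 2, -1.19 without KO line 1 and -0.15 with median scaling. Both of these neighbouring genes had line 1 above line 2 in each genotype. So did Igfbp3, which lies on another chromosome, with gaps of 0.21 log2 units in KO and 0.46 in WT. In all, 4 of the 8 IGF genes and 49.3% of all genes had gaps of the same sign in KO and WT. No label says what a line number marks.

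**Figure D3:**
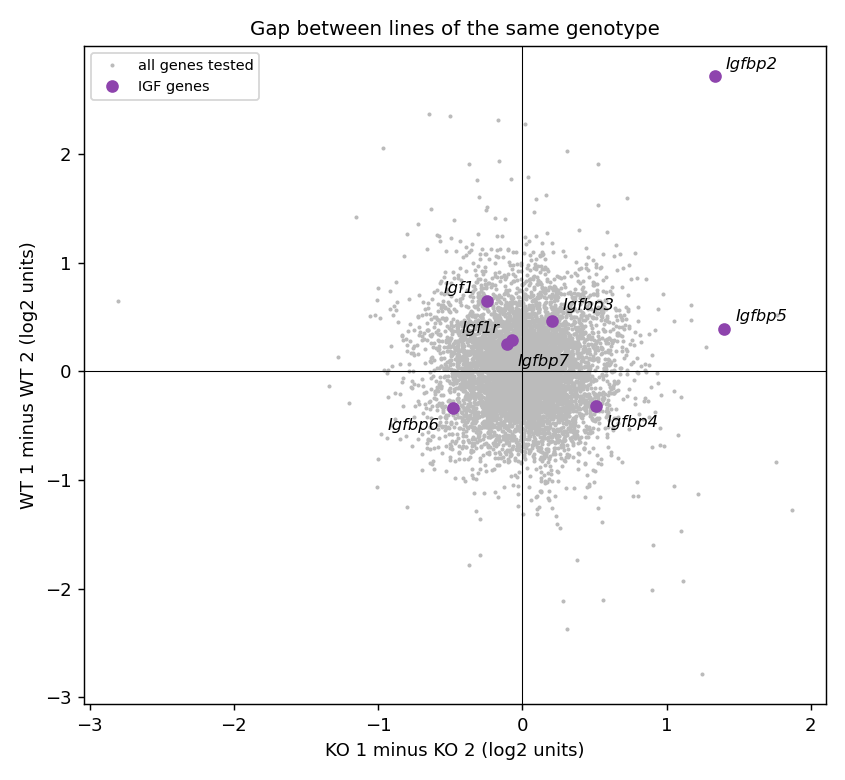
Gap between the KO lines (x axis, KO 1 minus KO 2) and between the WT lines (y axis, WT 1 minus WT 2) in log2 units for each of 8047 genes (grey) and the 8 tested IGF genes (purple). Igfbp2 lies far out on both axes (1.34 and 2.72) and Igfbp5 on the KO axis (1.40), while the other 6 lie within the cloud.

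Igfbp3, the main carrier of IGF in blood and also made by fibroblasts, overlapped between the genotypes. Its normalized values were 8.20 and 7.99 log2 units in KO lines, against 8.64 and 8.18 in WT, with the KO line 1 value between those of the WT lines. The difference was -0.31 ± 0.22 log2 units (SE, limma adjusted p = 0.801). It shrank to -0.08 without WT line 1, was -0.55 without WT line 2, and was -4.43e-04 with median scaling.

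Igfbp6, which prefers IGF-2 over IGF-1, had 6.63 and 7.11 log2 units in KO lines, against 7.01 and 7.35 in WT. The genotypes overlapped, with KO line 2 above WT line 1. The difference was -0.31 ± 0.23 log2 units (SE, limma adjusted p = 0.822). It was -0.06 without KO line 1, -0.55 without KO line 2 and -0.022 with median scaling.

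Igfbp7 encodes a secreted relative of the family that binds IGF only weakly and is found in the matrix and around blood vessels. Its bright probe had a deposited signal of 5669 and 6227 in KO lines, against 4031 and 3311 in WT. The normalized values were 12.26 and 12.37 log2 units in KO lines, against 12.17 and 11.93 in WT, which did not overlap. The difference was 0.26 ± 0.18 log2 units (SE, 1.20-fold, limma adjusted p = 0.801, 95% confidence interval -0.17 to 0.70). It was 0.14 without WT line 2 and 0.58 with median scaling. The other probe for Igfbp7 was detected on no array, with signals of 103 and 92.8 in KO lines, against 86.4 and 87.1 in WT, and gives no level for the gene. Of 6 endothelial markers, 5 had a probe, and Pecam1, Cdh5, Kdr and Tek were detected on no array. The remaining marker, Emcn, had a difference of 1.66 log2 units, with normalized values of 6.20 and 7.08 in KO lines, against 5.39 and 4.58 in WT, and it was not detected in WT line 2. Its part in the Igfbp7 signal was not tested.

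Igf2 and its clearance receptor Igf2r, which are imprinted genes outside of the 9, were strongly detected. Igf2 had 14.78 and 14.70 log2 units in KO lines, against 14.38 and 14.47 in WT (difference 0.31 ± 0.17, SE, limma adjusted p = 0.731), and Igf2r differed by 0.013 ± 0.18 (0.990).

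The other genes of the pathway were taken by role, and 0 of them passed the limma test over all probes. Of the genes for ligands, carriers and growth hormone signalling, 9 of 10 had a probe and 4 were tested, with 2 higher and 2 lower in KO. Stat5a, a transcription factor that drives Igf1 after growth hormone, stood at -0.82 ± 0.20 log2 units (SE), with 5.68 and 5.62 in KO lines, against 6.27 and 6.66 in WT, and was the 1 gene of this group at an unadjusted p under 0.05. As deposited, its signals overlapped between genotypes, with 143 and 138 in KO lines, against 136 and 159.5 in WT. Its difference was -0.38 without background correction, -0.45 in the values scaled by the authors and -0.54 with an offset of 50. Stat5b was detected on no array. The growth hormone receptor gene Ghr was at 0.17 ± 0.17. Of 7 other receptor genes 4 were tested, and the caveolin gene Cav1 (-0.35 ± 0.23), the integrin gene Itgav (0.15 ± 0.18) and the endocytic receptor gene Lrp1 (-0.18 ± 0.24) overlapped between genotypes. The insulin receptor gene Insr was detected on no array.

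Among the proteases that cut IGF binding proteins and their inhibitors, 9 of 13 genes were tested, 6 higher and 3 lower, and 1 in each direction had an unadjusted p under 0.05. Stc2, an inhibitor of the protease that cleaves Igfbp4, had 6.60 and 5.90 log2 units in KO lines, against 6.99 and 7.24 in WT (-0.87 ± 0.26, SE, limma adjusted p = 0.543), with KO line 2 lowest and WT line 2 highest as for Igfbp4. The serine protease gene Htra1 had 10.59 and 10.70 in KO lines, against 10.12 and 10.31 in WT (0.43 ± 0.18, adjusted p = 0.613). The unadjusted p of Htra1 was 0.115, 0.210 and 0.132 without KO line 1, KO line 2 and WT line 1, and its difference was 0.77 with median scaling. Stc2 was at -0.52 without KO line 2 (unadjusted p = 0.102), -0.60 with median scaling (0.0520) and -0.48 without background correction. The gelatinase gene Mmp2 was at 0.47 ± 0.23 (adjusted p = 0.685), and was 0.21 without WT line 2 and 0.78 with median scaling. Pappa and Pappa2, the main proteases of Igfbp4 and Igfbp5, had no named probe here.

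Downstream of the receptor, 23 of 36 genes of the PI3 kinase and AKT arm were tested, 12 higher and 11 lower, with a median of 0.011 log2 units. The kinase gene Sgk1 was the only gene of this arm at an unadjusted p under 0.05 (-0.53 ± 0.18, limma adjusted p = 0.570), with 11.46 and 11.17 in KO lines, against 11.84 and 11.85 in WT. The regulatory subunit gene Pik3r3 (0.40 ± 0.18) and the transcription factor gene Foxo1 (-0.35 ± 0.18) did not overlap between genotypes. With median scaling Sgk1 was at -0.21 (unadjusted p = 0.296), Pik3r3 at 0.73 and Foxo1 at -0.12, and Sgk1 was at -0.40 without KO line 2 (0.180) and -0.53 without WT line 2 (0.0508). All 6 tested genes of 17 in the RAS and MAP kinase arm had higher means in KO, with differences of 0.05 to 0.32 log2 units and 0 at an unadjusted p under 0.05, the upper end being the MAP kinase phosphatase gene Dusp6 (0.32 ± 0.17), followed by Nras (0.18 ± 0.18) and Map2k2 (0.09 ± 0.17). Of the proteins that bind the Igf2 mRNA, Igf2bp1 was at -0.30 ± 0.17 and Igf2bp3 at -0.12 ± 0.19.

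**Figure D4:**
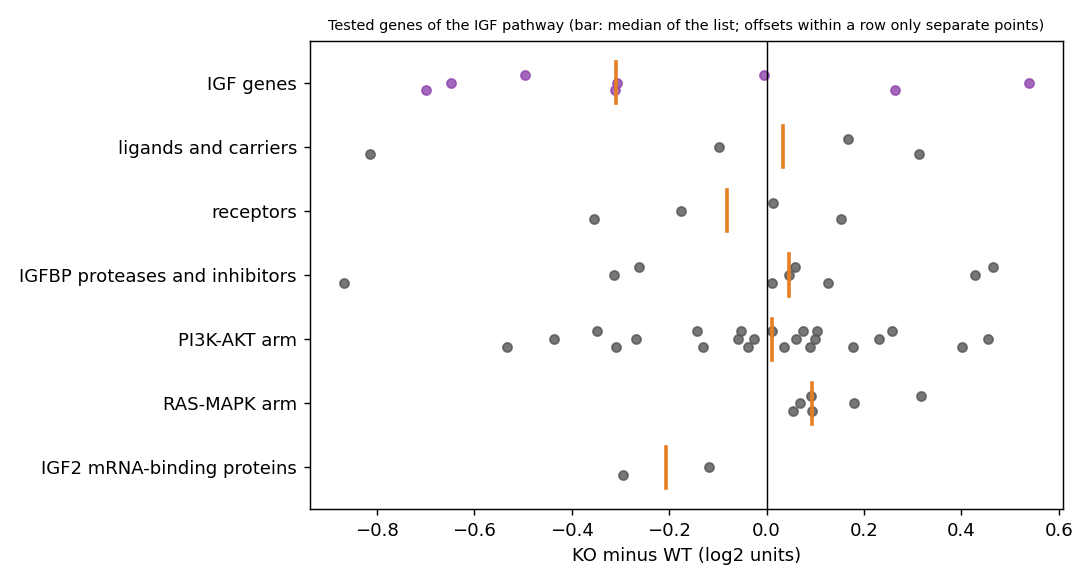
KO minus WT difference in log2 units (x axis) of each tested gene (points) in the IGF genes and in 6 other groups of the pathway (y axis), with an orange bar at the median of each group. The IGF genes have a median of -0.31 (0.030 without WT line 1) and span -0.70 to 0.54, while the 23 genes of the PI3 kinase and AKT arm lie on both sides of 0 with a median of 0.011.

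**Figure D5:**
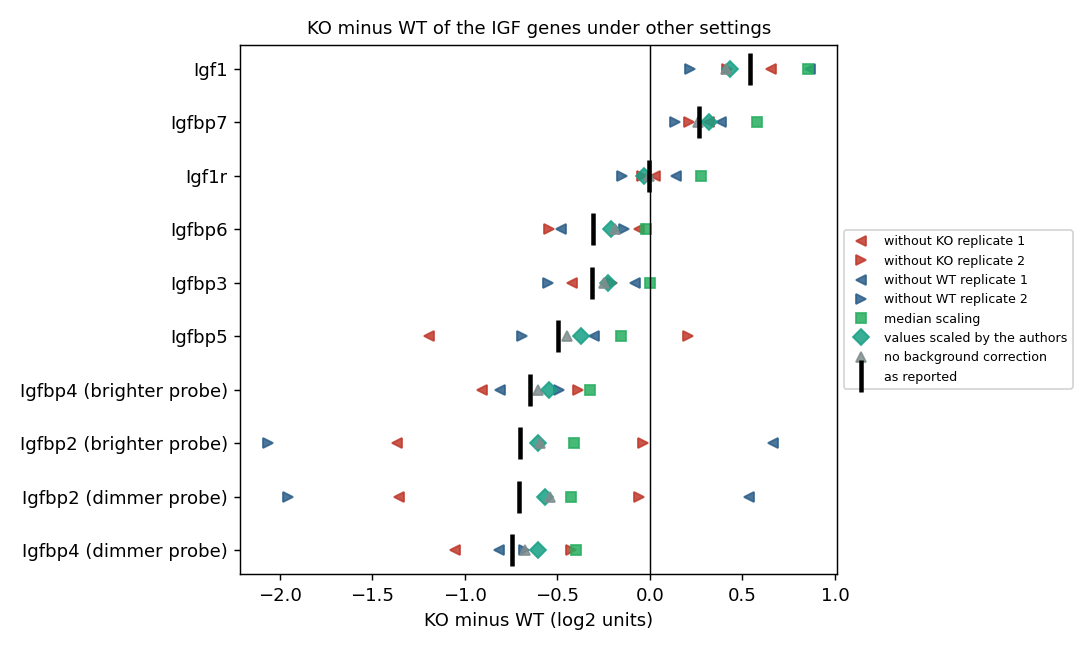
KO minus WT difference in log2 units (x axis) of each probe of the IGF genes (y axis) as reported (black bars), without each array in turn (triangles) and under 3 other ways of processing (squares, diamonds and grey triangles). Igfbp3, Igfbp4 and Igfbp6 stay below 0 and Igf1 and Igfbp7 above 0 throughout. With median scaling, though, Igfbp3 is at -4.43e-04 and Igfbp6 at -0.022. Igfbp2 runs from -2.06 to 0.66 and Igfbp5 from -1.19 to 0.20.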

How the data were processed

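The deposited table holds, per the file headers, a signal intensity and a detection p-value for 25697 probes on each of 4 arrays. The authors took it from Illumina MouseRef-8 BeadChips through GenomeStudio, with no background subtracted and no scaling. The deposited series table holds intensity values that the authors had scaled by 1 factor per array (0.884 and 0.883 in KO, 1.16 and 1.15 in WT), used here as an alternative. Probes were named through the platform annotation, with symbols updated by gene ID: 23978 had 1 gene, 0 several and 1719 none.

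R 4.3.3 and limma 3.58.1 were used. Background was modelled from the detection p-values, an offset of 16 added, arrays quantile normalized and taken to log2 (neqc). Probes were kept if 2 or more arrays gave a detection p under 0.05, which left 11552. They were fitted with lmFit and eBayes (two-sided; residual degrees of freedom 2, prior 4.86), with Benjamini-Hochberg adjustment over all of them. Of several probes kept for a gene, the one with the highest mean stood for it. Where neither array of a genotype detected a probe, the fold is a bound against the dimmest detected signal. The fit was tested on simulated data. Precision is limited by the number of arrays.

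The members and gene lists were chosen with earlier results of these data known. Named genes are all 9 members, H3f3b, H3f3a, Igf2, Igf2r, the 3 genes of each pathway group with the smallest p-values, and the 3 genes nearest to the member with the smallest p. Insr, Pappa, Pappa2, Stat5b, Eif2s3y, Xist and the cell type markers were named outside of this rule. Alternatives changed the background (none), the offset (50), the scaling (median) or the source of values (those scaled by the authors), dropped the detection filter or made it strict (under 0.01 on each of the 4 arrays), used trend and robust variances in eBayes, took the line number for a replicate block, or left out 1 array at a time. A genotype with 1 array left takes its spread from the other genotype.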

Additional observations from a re-analysis of the deposited data

How the results depend on the processing

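No IGF gene passed the adjusted threshold under any of the 12 alternatives, where the smallest adjusted p of a member ranged from 0.178 to 0.99985. The number of IGF genes at an unadjusted p under 0.05 was 1 as reported, Igfbp4. It was 2, Igf1 and Igfbp4, without background correction, with an offset of 50 and with trend and robust variances. With median scaling it was also 2, but these were Igf1 and Igfbp7, both higher in KO, and not Igfbp4. In the values scaled by the authors it was 3 (Igf1, Igfbp4 and Igfbp7). The unadjusted p of Igfbp4 ranged from 0.00359 to 0.212. With 1 array left out, the count of IGF genes is not given, because a genotype then has only 1 array. The difference of the brighter Igfbp4 probe was then -0.91 without KO line 1 and -0.39 without KO line 2. The median of the IGF genes was -0.011 with median scaling (all genes 0.28) and -0.32 to 0.030 when an array was left out, being -0.039 without KO line 2 and 0.030 without WT line 1. Over all genes, 1 passed the test as reported, 20 with trend and robust variances, 2 with the replicate block, 0 with the strict filter, under which H3f3b was not tested (527 at an unadjusted p under 0.05), and 1 to 21 when an array was left out, 21 being without WT line 1. Genes at an unadjusted p under 0.05 numbered 654 as reported, 1915 with median scaling, 1167 without the detection filter, and 304 to 1099 when an array was left out. Signs turned for Igf1r with median scaling (0.28) and with an array left out (-0.15 to 0.14), for Igfbp2 (-2.06 to 0.66, dimmer probe -1.96 to 0.53) and Igfbp5 (-1.19 to 0.20) with an array left out, for Igf2r (-0.080 to 0.10) likewise, for Lrp1 with median scaling (0.013) and with an array left out (-0.46 to 0.12), and for Igf2bp3 with median scaling (0.19) and with an array left out (-0.28 to 0.038). No label ties lines of the same replicate number to each other, and the deviations of KO line 1 and WT line 1 from their genotype means had a correlation of -0.036 across probes, and with the block the count of IGF genes at an unadjusted p under 0.05 was 1, Igfbp4, while the unadjusted p of Igfbp2 was 0.0525 on its brighter probe and 0.0353 on its dimmer probe, that of Igfbp5 0.0945 and that of Htra1 0.0594. Signal over background limits Irs1, whose probe was detected on 1 array.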
